A study of Mus musculus with 8 samples.

Results

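The regions described here are stretches of DNA with an ATAC-seq peak in all 4 FGR libraries and in none of the 4 control (Ctrl) libraries of hippocampal microglia. They number 454 of 52251 union regions, 0.869% of the total. A union region was made by merging the peaks of all 8 lists wherever they shared at least 1 bp, and it counted as called in a library when a peak of that library overlapped it. The opposite pattern, a peak in all Ctrl and no FGR libraries, was found in 14 regions, or 0.0268%. The peak calls themselves chose the 454 regions, so their presence in FGR and absence from Ctrl is a description and was not tested.

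ATAC-seq cuts open chromatin with a transposase that inserts sequencing adapters, and a peak caller reports places where the cut fragments pile up above the local background. The libraries came from the hippocampus of mice aged 3 weeks, with 4 labelled Ctrl and 4 labelled FGR, the study's abbreviation for growth restriction in the womb. Animals of both groups were heterozygous for a Tmem119-tdTomato reporter, which marks microglia through the Tmem119 gene, and the sources used here do not say how the cells were isolated or whether a library pools animals. Where nothing states separate animals, spread between libraries may be technical.

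Microglia are the resident macrophages of the brain, and they survey tissue, engulf dying cells and prune synapses. Their identity rests on enhancers, distal regulatory regions bound by the myeloid factor PU.1 together with other factors, and distal regions vary more between cell states than promoters do. Engulfment depends on receptors that signal through Src-family kinases and on ELMO and DOCK proteins that activate the GTPase Rac, while chimaerins and other GTPase-activating proteins switch Rac off.

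Most of the regions lay far from gene ends, where no sequence was used here. The promoter sequences below are from the minority that overlapped the 250 bases upstream of an annotated start, taken from the RefSeq promoter table of GRCm38.p6 (mm10 coordinates). They are shown because they are the places where a called region and a known start coincide. The genes are Zfp54, which encodes a zinc finger protein, Krtcap2, a subunit of the oligosaccharyltransferase that attaches sugars to proteins, Pqlc3, Fcgr2b, the inhibitory IgG receptor gene, and Mef2c, a transcription factor gene of microglia. Each is written 5′ to 3′ on the strand of its gene, and capitals mark matches on either strand to the motifs GAGGAAG (PU.1), GGGCGG (GC box) and CTCF (CCA, AG and GGC, each separated by 2 free bases).
Zfp54 chr17:21422994-21423243 plus strand: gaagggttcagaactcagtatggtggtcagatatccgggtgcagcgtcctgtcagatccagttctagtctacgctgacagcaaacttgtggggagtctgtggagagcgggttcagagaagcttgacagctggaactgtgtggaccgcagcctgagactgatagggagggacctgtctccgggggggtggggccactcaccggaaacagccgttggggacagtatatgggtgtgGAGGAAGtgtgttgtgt
Krtcap2 chr3:89246223-89246472 plus strand: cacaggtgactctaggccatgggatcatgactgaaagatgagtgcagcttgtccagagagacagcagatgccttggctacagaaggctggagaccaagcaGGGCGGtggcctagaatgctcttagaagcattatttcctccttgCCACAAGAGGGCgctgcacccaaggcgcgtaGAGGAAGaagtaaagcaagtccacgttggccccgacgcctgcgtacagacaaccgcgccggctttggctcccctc
Pqlc3 chr12:17000119-17000368 minus strand: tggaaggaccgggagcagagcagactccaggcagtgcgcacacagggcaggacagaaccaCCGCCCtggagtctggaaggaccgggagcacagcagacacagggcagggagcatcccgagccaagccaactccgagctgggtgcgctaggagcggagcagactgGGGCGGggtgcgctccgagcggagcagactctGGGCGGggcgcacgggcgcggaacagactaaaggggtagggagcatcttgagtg
Fcgr2b chr1:170976072-170976321 minus strand: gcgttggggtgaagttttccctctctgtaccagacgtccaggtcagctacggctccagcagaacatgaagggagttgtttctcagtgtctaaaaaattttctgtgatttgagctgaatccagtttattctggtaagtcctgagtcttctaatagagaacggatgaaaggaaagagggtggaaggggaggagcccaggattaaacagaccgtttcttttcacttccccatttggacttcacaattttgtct
Mef2c chr13:83523406-83523655 plus strand: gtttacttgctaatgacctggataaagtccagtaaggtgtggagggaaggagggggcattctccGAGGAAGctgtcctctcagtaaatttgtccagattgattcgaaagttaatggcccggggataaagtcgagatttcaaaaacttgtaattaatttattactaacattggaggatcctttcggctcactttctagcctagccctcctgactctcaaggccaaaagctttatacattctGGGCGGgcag

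In the Zfp54 window there was 1 PU.1 match, and the Krtcap2 window held 1 match each to PU.1, the GC box and CTCF. The Pqlc3 window held 3 GC boxes, the Mef2c window 1 PU.1 match and 1 GC box, and the Fcgr2b window none of these 3 motifs. The called region covered all 300 bases of the tabulated window, which runs to 50 bases past the start, for Zfp54, Krtcap2 and Pqlc3. It covered 241 of 300 bases for Fcgr2b and 110 for Mef2c. In all, 30 of the 454 regions overlapped 37 such windows of 32 genes, out of 21263 windows of 17492 protein-coding genes.

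Over those 37 windows, the PU.1 letters were found in 8 (21.6%, against 13.6% of all 21263 windows) and the CTCF letters in 5 (13.5% against 2.34%). The interferon response element, searched as a pair of GAAA blocks with 2 free bases between them, was found in 3 windows (8.11% against 3.35%), and the E-box CACGTG also in 3 (8.11% against 7.84%). The GC box stood at 48.6% against 46.2%, and the NF-kB letters, GGG and CC with 5 free bases between them, at 54.1% against 57.0%. Matches to the NF-kB letters are left in lower case above. No window held the AP-1 letters TGANTCA (6.99% of all windows) or the CRE letters TGACGTCA (2.23%). Motifs can overlap one another, alternative windows of 1 gene share bases (Zfp54 has 3 of the 37 and Krtcap2 2), and these shares are descriptions of letters with no test. Median GC content was 57% in the 37 windows and 56.3% in all, and the median number of CpG sites was 13 in both.

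One distal region is shown through the microRNA beside it. The region at chr8:84207876-84208117 is the shortest of the 454, at 242 bp, and ends 401 bp before the hairpin of Mir23a, which is transcribed from the plus strand and belongs to a microRNA cluster expressed in myeloid cells. The mature sequences from the RefSeq table are given with the seed, bases 2 to 8, in capitals. The arms have different seeds.
mmu-miR-23a-5p: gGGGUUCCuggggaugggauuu
mmu-miR-23a-3p: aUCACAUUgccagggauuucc

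This region had a summit pileup, the number of extended reads stacked at the peak's highest point, of 56, 50, 54 and 64 in FGR libraries 1 to 4. Relative to background coverage its lowest value was the third highest of the 454, and it was chosen for naming after its values were seen. Its deposited ratio of pileup to local background was low, at 3.07, 2.50, 2.48 and 2.68. The medians of the 454 were 3.69, 3.82, 3.57 and 3.63. The nearest protein-coding gene end, that of Zswim4, lay 2825 bp away and the nearest Ctrl peak 3567 bp away. Hairpins of Mir6367 and Mir7688 lay 11 and 317 bp from 2 other regions.

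Before the results, some facts on the libraries bear on all of them. The lists held 16111, 10862, 22705 and 24195 peaks in Ctrl 1 to 4 and 27209, 23327, 29501 and 26246 in FGR 1 to 4, so Ctrl 1 and 2 had the shortest lists. They also stood apart in peak width, with medians of 566 and 522 bp against 353 to 386 bp in the other 6 libraries, and without them 534 regions were FGR-only, among them all 454, and 394 were Ctrl-only. A Ctrl-only region then needs calls in 2 Ctrl libraries, against 4 for the count of 14. FGR 1 and 3, and FGR 2 and 4, shared exact summit positions at 47 (10.4%) and 34 (7.49%) of the 454 regions, against 2 to 9 (0.441% to 1.98%) for other pairs. The calls in 4 FGR libraries may therefore rest on 2 sources, and values are given per library with no mean or SD. Background coverage, the lowest local background of a list in extended reads per base, was 3.01 to 6.05 in Ctrl and 3.52 to 4.82 in FGR. Of 10 microglia marker genes, 4 to 8 had a peak within 1 kb of a gene end in Ctrl and 7 to 9 in FGR libraries. In each list of markers of another cell type, from neurons and astrocytes to monocytes and lymphocytes, at most 1 gene had one in any library.

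The FGR-only regions were mostly weak to middling peaks of their lists. Their median pileup was 23, 22, 28 and 27 in FGR 1 to 4, with ranges of 13 to 58, 13 to 71, 16 to 67 and 16 to 72. The median over all peaks of the same lists was 25, 27, 29 and 31, so the regions lay slightly below a typical peak in each library. Relative to background coverage, the median summit stood 6.01, 6.24, 5.80 and 5.88 times higher. The authors' fold, pileup over local background, had medians of 3.69, 3.82, 3.57 and 3.63, and their −log10 q had medians of 5.46, 5.55, 6.51 and 6.18. A −log10 q of at least 5 was reached by 265, 286, 318 and 318 regions in FGR 1 to 4, and by 142 in all 4 lists at once. In such bulk libraries, more cells with a region open and more cuts per open region cannot be told apart.

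Regions were ranked by their lowest percentile, that is, by the weakest of their 4 positions when each FGR list is ordered by −log10 q. This value ran from 0.294 to 72.4 with a median of 21.6. It was at least 50 for 32 regions, at least 25 for 194 and under 10 for 104. FGR 2 supplied the lowest percentile for 170 regions, FGR 1 for 107, FGR 4 for 105 and FGR 3 for 72. The summits of a region in the 4 libraries lay within a median span of 86 bp, and within 100 bp for 253 of the 454. Widths ran from 242 to 1116 bp with a median of 429 bp.

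Values on either side of the rule were as follows. Just outside it lay 860 regions called in all 4 FGR libraries and 1 Ctrl library, with a median lowest FGR percentile of 27.03, and 946 regions called in 3 FGR and no Ctrl libraries, with 16.3. The single Ctrl call of the 860 was in Ctrl 4 for 430, in Ctrl 3 for 355, in Ctrl 1 for 68 and in Ctrl 2 for 7. That Ctrl peak had a median percentile of 31.9 in its own list and was under the 25th percentile for 301 regions (35%). With 2, 3 and 4 Ctrl calls the median lowest FGR percentile was 34.6, 46.4 and 71.9. When each list was cut to its strongest peaks, as many as the shortest list holds, 128 regions were FGR-only and 90 Ctrl-only, and 10 of the 454 were among the 128.

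**Figure D1:**
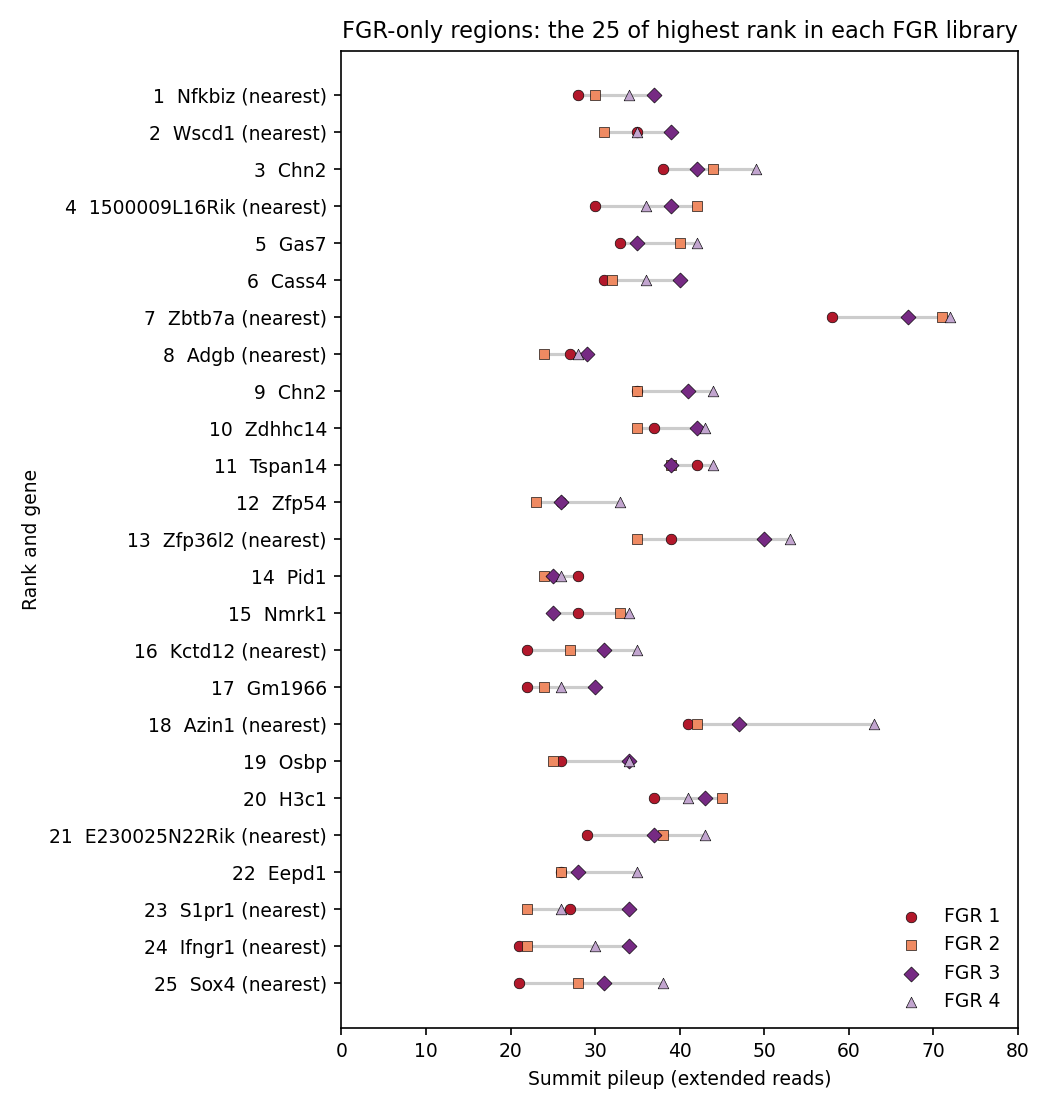
Summit pileup in extended reads (x axis) of the 25 FGR-only regions of highest rank (y axis, with the gene that holds or lies nearest to each), 1 point per FGR library. Most points lie between 21 and 50, and the region beside Zbtb7a stands apart at 58 to 72 in all 4 libraries.

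The highest-ranked region was intergenic, at chr16:55663938-55664267, and had pileups of 28, 30, 37 and 34 in FGR 1 to 4. Its nearest protein-coding gene end, 147108 bp away, was that of Nfkbiz, which encodes a nuclear IκB protein that steers inflammatory transcription. The nearest Ctrl peak lay 34339 bp away. The second, at chr11:71817232-71817887 and 27583 bp from Wscd1, had 35, 31, 39 and 35. The fourth, at chr10:83946536-83947046, lay 183774 bp from 1500009L16Rik and had 30, 42, 39 and 36. These regions are thus far from any gene end, and the genes named are neighbours, not shown targets.

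The tallest region by pileup stood close to Zbtb7a, which encodes a zinc finger repressor of haematopoietic cells. At chr10:81134243-81134599, 626 bp from the gene's end, its pileups were 58, 71, 67 and 72, and its summits agreed within 8 bp. Pileups were the highest of all 454 regions in each of the 4 libraries. A Ctrl peak lay 2258 bp away. By its lowest percentile of −log10 q it ranked seventh. Ranked by pileup over background coverage instead, it came first, and 7 of the top 25 stayed in the top 25. Its fold over local background was 2.77, 3.61, 2.90 and 3.18, under the medians of the 454 (3.69, 3.82, 3.57 and 3.63).

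Chn2, which encodes the Rac GTPase-activating protein β-chimaerin, held regions ranked 3 and 9. The region at chr6:54119930-54120258 had pileups of 38, 44, 42 and 49, and that at chr6:54160700-54161045 had 35, 35, 41 and 44. Both lay inside the gene span, 79998 and 120768 bp from its nearer end, and 2142 and 1612 bp from a Ctrl peak.

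Gas7, which encodes an F-BAR protein that links membranes to actin, held the fifth region, at chr11:67579114-67579666, with 33, 40, 35 and 42. Cass4, a scaffold of focal adhesions, held the sixth, at chr2:172430561-172430967, with 31, 32, 40 and 36. The actin nucleator gene Fmnl2 held a region of lower rank, 337, with 16, 22, 19 and 33. Of the 31 listed actin and phagocytic cup genes, Gas7 and Fmnl2 were the 2 with a region. Of 14 integrin genes Itga9 alone had one, with 25, 23, 38 and 35. Over all protein-coding genes 2.56% had a region within 20 kb. The median span was 84615 bp for the actin list and 59164.5 bp for the integrin list, against 17169 bp for all genes. These counts are not read as a result.

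Other neighbours among the first 25 ranks encode proteins of several kinds. Regions lay inside the genes of the palmitoyltransferase Zdhhc14 (37, 35, 42 and 43 in FGR 1 to 4) and the ADAM10 partner Tspan14 (42, 39, 39 and 44). Regions of this set were also inside Nmrk1, a kinase of NAD synthesis (28, 33, 25 and 34), Pid1 (28, 24, 25 and 26) and Gm1966 (22, 24, 30 and 26). Intergenic regions of this set lay nearest to Zfp36l2, whose product promotes mRNA decay (39, 35, 50 and 53), and to the polyamine regulator gene Azin1 (41, 42, 47 and 63). FGR 4 was the highest of the 4 libraries in both.

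Osbp, which encodes an oxysterol-binding protein, held a region with 26, 25, 34 and 34, and Eepd1, a gene of cholesterol efflux, one with 26, 26, 28 and 35. The intergenic region nearest the sphingosine-1-phosphate receptor gene S1pr1, 48163 bp away, had 27, 22, 34 and 26. That nearest the interferon-gamma receptor gene Ifngr1, 43580 bp away, had 21, 22, 34 and 30. The region 90581 bp from Sox4, a transcription factor gene, had 21, 28, 31 and 38. The remaining regions of the first 25 lay nearest Adgb, Kctd12 and E230025N22Rik or overlapped Zfp54 and H3c1, and their pileups ran from 22 to 45.

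At the other end, the 3 lowest-ranked regions were inside Prune2 and Gyg and 4222 bp from Kcnn4, which encodes a calcium-activated potassium channel. The region in Prune2 had pileups of 25, 13, 25 and 22 and that in Gyg 23, 13, 24 and 21, with FGR 2 the lowest in both. The region near Kcnn4 had 19, 27, 24 and 37. Their lowest percentiles were 0.429, 0.298 and 0.294, at the edge of what was listed at all.

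**Figure D2:**
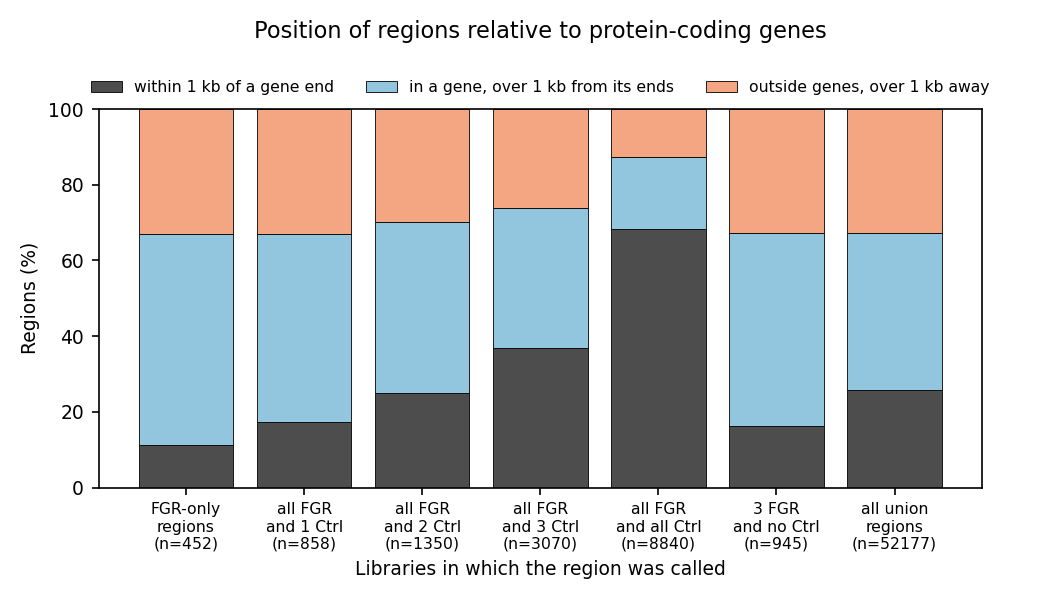
Percent of regions (y axis) within 1 kb of a protein-coding gene end, inside a gene farther than that, or intergenic, by the libraries in which the region was called (x axis). The gene-end share is 11.3% for the FGR-only regions and rises with each further Ctrl library to 68.3% where all 8 libraries had a call.

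Position relative to genes was not used by the rule. Of the 452 on assembled chromosomes, 51 (11.3%) lay within 1 kb of either end of a protein-coding gene, 252 (55.8%) were in a gene but farther away, and 149 (33.0%) were intergenic. The other 2 lay on unplaced contigs. Over all union regions the shares were 25.9%, 41.4% and 32.7%. The median distance to the nearest gene end was 17757 bp, against 9707 bp for all union regions.

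The same gene-end share ordered the regions called in all 4 FGR libraries by how many Ctrl libraries also called them. It was 11.3% with 0 Ctrl calls, 17.2% with 1, 25.04% with 2, 36.9% with 3 and 68.3% with 4. Median lowest percentile rose over the same classes from 21.6 to 71.9, as given above, so position and peak strength move together, and their parts were not separated by a test. Among regions of 3 FGR and no Ctrl calls the share was 16.2%. Of the 14 Ctrl-only regions, 11 lay at a gene end. The gene table has no strand, so a gene end may be 5′ or 3′.

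Ctrl peaks were rarely far away. The nearest one lay at a median of 7308 bp, within 200 bp for 18 regions, within 1000 bp for 61 and within 50000 bp for 425 of the 454. The closest case, at 3 bp, overlapped an end of Irf2bp2, which encodes a transcriptional corepressor, with pileups of 42, 44, 51 and 47. A Ctrl peak border almost touches this region. The farthest case overlapped an end of the synaptic adhesion gene Cadm2, 1734769 bp from a Ctrl peak, with 18, 21, 17 and 19. These 2 were chosen after their values were seen.

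At gene ends, the leading regions after Zbtb7a were at Zfp54 (26, 23, 26 and 33 in FGR 1 to 4) and at H3c1, a histone gene (37, 45, 43 and 41). Next came the region 681 bp from Ccdc97, with 41, 40, 44 and 55, which also lay 4961 bp from Tgfb1, the gene of a cytokine that microglia need. The start of Pqlc3, printed above, had 26, 20, 28 and 29. The region at Krtcap2, also printed, had 31, 27, 37 and 32 and overlapped an end of Trim46. That at Fcgr2b, at chr1:170975856-170976262, had 23, 29, 23 and 24, and the nearest Ctrl peak lay 16299 bp away.

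Further gene-end regions stood at Pgpep1 (36, 31, 44 and 34), at Nccrp1 (24, 30, 39 and 35) and 514 bp from Nrp1, a semaphorin and growth factor receptor gene (24, 22, 27 and 22). The region at an end of Gapdh, a glycolytic enzyme gene, had 33, 51, 36 and 43 and lay 466 bp from a Ctrl peak. Those near Mier2, Plod3 and Znhit1, Cul9 and Haao had pileups between 21 and 45.

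Some genes held more than 1 region. The 454 regions overlapped 290 of 21887 protein-coding genes (1.32%), and 14 genes held 2. Genes with a region were long, with a median span of 73567 bp against 17169 bp for all, so long genes had more room for one. Among them were Chn2, Maml2, a Notch coactivator gene, Cux1, Sgk1, Epb41, Elmo1, Lyn, Lims1, Cdh23, Svil, Prkca, Wbp1l and Bicral. Regions also neighboured each other: 40 of them fell into 19 groups whose members were at most 50 kb apart. The largest groups held 3, beside Ift57 and Cd47 on chromosome 16 and at Wbp1l and Borcs7 on chromosome 19. Chromosome 11 held 45 of the 454 regions, 9.91% against 7.75% of all union regions, and chromosome 10 held 36, 7.93% against 5.08%. The share was also higher on chromosome 19 (5.07% against 2.99%). It was lower on chromosome 2 (5.73% against 7.93%) and chromosome 13 (2.64% against 4.42%). These chromosomes were chosen after their values were seen, and no test was made.

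Genes of engulfment signalling with a region in the span or within 20 kb included ELMO and DOCK genes. Elmo1, whose product works with DOCK proteins to activate Rac during engulfment, held 2. The region at chr13:20207101-20207481 had 25, 28, 28 and 30, and that at chr13:20127638-20127926 had 16, 26, 26 and 23. A region inside Slc35c2, 1865 bp from Elmo2, had 36, 33, 50 and 41, and one inside Dock10 had 17, 18, 23 and 23. Both Elmo2 and Dock10 regions were highest in FGR 3 or tied for it.

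Receptor-proximal genes with a region were Fcgr2b and Lyn, 2 of 21 on the list of Fc receptors and their signalling. Over all protein-coding genes 2.56% had a region within 20 kb. Lyn, a Src-family kinase gene, held a region with 21, 19, 23 and 28 and another with 19, 32, 32 and 25. Prkca, the protein kinase C alpha gene, held 2, with 25, 21, 27 and 22 and with 17, 27, 22 and 30, and was the sole one of 22 listed genes. That list had a median span of 155124 bp, against 17169 bp for all genes, and these counts are not read as a result. Cd47, the gene of a "do not engulf" signal, lay 10815 bp from a region with 17, 22, 27 and 19. Pileups at these genes ran from 17 to 32.

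Several homeostatic microglia genes had regions nearby. A region inside Iscu, 17181 bp from the reporter gene Tmem119, had 42, 39, 43 and 46, and a Ctrl peak began 82 bp from it. Cst3, the cystatin C gene, had 2 nearby, at 39, 45, 37 and 42 and at 18, 25, 28 and 29. The fractalkine receptor gene Cx3cr1 lay 14833 bp from a region with 15, 19, 21 and 23, whose nearest gene end was that of Ccr8. Entpd1, an ectonucleotidase gene, held one with 23, 28, 29 and 31.

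Transcription factor genes of microglia had regions at 5 of 27. Inside Mef2c, at the start printed above, pileups were 24, 23, 28 and 26, with a Ctrl peak 200 bp away. Runx1 held a region with 24, 25, 30 and 38 and Mitf, a regulator of lysosomal genes, one with 28, 24, 36 and 25. The region 17738 bp from Cebpa, a myeloid factor gene, had 29, 29, 31 and 36, and that 11348 bp from Batf3 had 26, 22, 33 and 32. No region lay within 20 kb of any of 19 NF-kB genes, 18 Toll-like receptor genes or 25 genes of disease-associated microglia. Over all protein-coding genes 560 of 21887 (2.56%) had one, so none in lists of this size is not read as a result.

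Metabolic and growth factor genes had scattered regions. Over all protein-coding genes 2.56% had a region within 20 kb. Of 23 lipid and cholesterol genes, 3 had one: Npc1 (37, 24, 40 and 31) and Npc2 (34, 24, 35 and 30), which export cholesterol from lysosomes, and Soat1 (16, 20, 25 and 22), which esterifies it. FGR 1 and 3 were higher than FGR 2 and 4 at both Npc genes. Of 24 insulin and growth factor genes, Igf1r (25, 28, 29 and 30) and Pik3r5 (24, 16, 31 and 31) had one. Sgk1, a kinase gene induced by glucocorticoids, held 2, with 24, 22, 30 and 27 and with 18, 29, 21 and 29, and was the sole one of 14 glucocorticoid response genes.

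TGF-beta signalling had 3 of 21 genes, Tgfb1 beside the Ccdc97 region, Ski (32, 27, 41 and 41) and the receptor gene Acvr1 (20, 17, 25 and 22). Hypoxia and glycolysis had 3 of 21, Gapdh, Eno1 (17, 19, 26 and 19) and the lactate transporter gene Slc16a3 (22, 20, 32 and 25). The region near Slc16a3 lay inside Csnk1d. The lysosomal gene Laptm5 had one (26, 26, 36 and 34), and 1 of 21 interferon genes, Ifnar1, had one (26, 28, 31 and 39). Among long synaptic genes Rbfox1 (22, 19, 29 and 31) and Cadm2 had one. Of the markers of other cell types, Mbp, a myelin gene, alone had one (23, 29, 25 and 34), and no region lay near a listed marker of neurons, astrocytes, endothelial cells, monocytes or lymphocytes. Those empty lists held 3 to 7 genes each, and 2.56% of all protein-coding genes had a region within 20 kb.

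Over all lists, 38 of 477 matched genes (7.97%) had a region in the span or within 20 kb, against 560 of 21887 protein-coding genes (2.56%). The listed genes were picked largely for their role in microglia, with earlier results of these data known. They are long, with a median span of 35380 bp. Genes with a gene-end peak in all 8 libraries had one more often (257 of 6975, or 3.68%) than genes with none (110 of 9227, or 1.19%). No test was made of these shares.

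The groups' other peaks near the same genes were counted, since the rule did not use them directly. For each gene, from 20 kb before its span to 20 kb after it, the peaks outside the 454 regions were counted per library and compared with limma on log2 of peaks plus 0.5 per 10000 peaks. None of 7989 loci passed at a Benjamini-Hochberg adjusted p of 0.05 in either direction (0% called). At an unadjusted p under 0.05, 178 were higher and 1169 lower in FGR, and the median log2 difference over all loci was -0.26. With each list cut to the length of the shortest, 176 were higher and 145 lower and the median was 0, so the excess of lower loci was not seen under that scaling. Of the 560 loci with a region, 391 were tested, with a median of -0.19, and 134 (34.3%) were positive against 22.4% of all loci. Genes overlapped by a region were longer (median span 73567 bp against 17169 bp for all), and these shares were not adjusted for span. None of the 391 passed, with 23 higher and 60 lower at an unadjusted p under 0.05.

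The Elmo1 locus held 4, 1, 8 and 9 other peaks in Ctrl 1 to 4 and 14, 11, 16 and 16 in FGR 1 to 4. These counts are not scaled to list length, and the lists of Ctrl 1 and 2 were the shortest. Relative to list length, the log2 difference was 1.03 ± 0.22 (SE) with an adjusted p of 0.135 (limma), which did not pass. It was positive in 16 of 16 alternative fits, from 0.55 to 1.20, and passed in 6, with adjusted p from 0.000159 to 0.589 (limma). Of these 6, the fit with all peaks kept (adjusted p 0.0232, limma) put back the 2 regions chosen by the rule. That fit is therefore no separate support. The lowest adjusted p, 0.000159, came from the fit with the replicate number as a block, and the numbers were not taken as pairs. Without Ctrl replicate 3 the Elmo1 difference passed with an adjusted p of 0.0208, and without Ctrl replicate 4 with 0.0323. Without Ctrl replicates 1 and 2 it fell to 0.55. With replicates 1 and 3, and 2 and 4, of each group averaged, the adjusted p was 0.306.

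The Chn2 locus, which holds the third and ninth regions, had 8, 4, 8 and 10 other peaks in Ctrl and 12, 9, 14 and 11 in FGR. The counts overlap between groups, and relative to list length the log2 difference was 0.07 ± 0.17 (SE), with an adjusted p of 0.814 (limma). Cux1 (0.49 ± 0.18, adjusted p = 0.258) and Cdh23 (0.54 ± 0.25, adjusted p = 0.278) were positive and did not pass. For Lims1, Wbp1l, Prkca, Lyn, Bicral, Sgk1, Maml2 and Epb41, which also held 2 regions, the difference lay between -0.23 and 0.35.

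**Figure D3:**
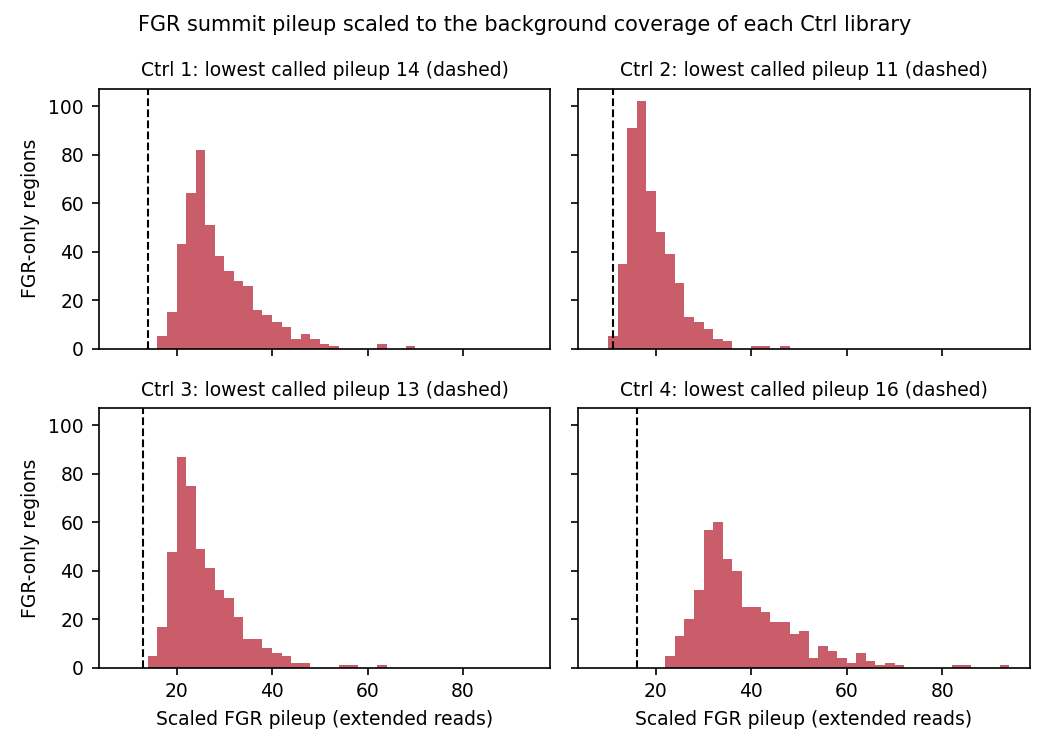
Number of FGR-only regions (y axis) by their FGR pileup multiplied to the background coverage of each Ctrl library (x axis, extended reads), 1 panel per Ctrl library, with the lowest pileup that library's list contains as a dashed line. All scaled values lie above the line, with medians of 17.8 in Ctrl 2 to 35.8 in Ctrl 4.

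Absence from a Ctrl list means that no peak passed the caller's threshold there, not that no reads were present, and read coverage was not analysed here. The smallest pileup listed at all was 14, 11, 13 and 16 in Ctrl 1 to 4. Scaled by background coverage, the median FGR pileup of the regions would correspond to 26.8, 17.8, 23.9 and 35.8 in those libraries. All 454 scaled values would exceed the smallest listed pileup in all 4. A region would pass in a library if its scaled pileup reached the lowest −log10 p listed there, and 452 of the 454 would pass in all 4. These values assume that peaks scale with background coverage, which need not hold. Among the 14596 regions called in all 4 FGR libraries, those that would pass were in fact called in 83.6%, 63.8%, 91.4% and 91.6% of cases. Ctrl 2 thus listed the fewest, also outside the 454 regions.

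**Figure D4:**
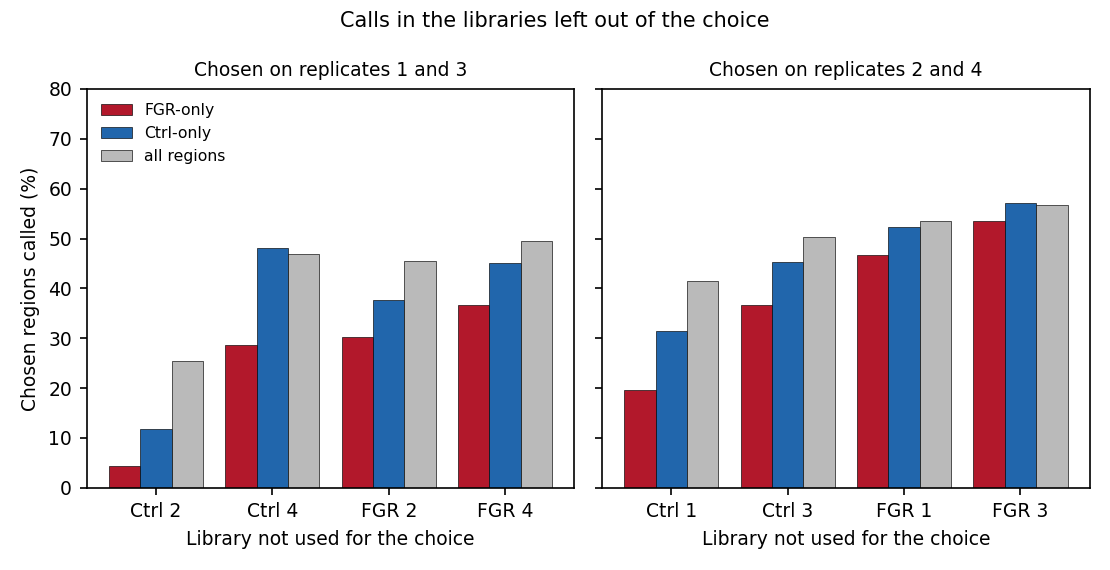
Percent of regions called (y axis) in each library not used for choosing them (x axis), for regions chosen as FGR-only or Ctrl-only on 2 replicates of each group and for all regions of those replicates, 1 panel per choice. FGR-only regions chosen on replicates 1 and 3 were called in 28.6% in Ctrl 4 and 30.3% in FGR 2, a difference smaller than that between Ctrl 2 and Ctrl 4.

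How far the pattern carries over to libraries not used for the choice was described by choosing on replicates 1 and 3 and reading replicates 2 and 4. Of 4212 regions called in FGR 1 and 3 and in neither Ctrl 1 nor Ctrl 3, 30.3% were called in FGR 2 and 36.8% in FGR 4, against 4.39% in Ctrl 2 and 28.6% in Ctrl 4. Over all 40514 regions of the chosen replicates, the same libraries called 45.5%, 49.5%, 25.4% and 47.0%. Ctrl 4 thus listed such regions nearly as often as FGR 2.

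Chosen the other way, on replicates 2 and 4, 3160 regions were FGR-only. They were called in 46.7% in FGR 1 and 53.5% in FGR 3, against 19.7% in Ctrl 1 and 36.6% in Ctrl 3. All 36551 regions of these replicates were called in 53.5%, 56.8%, 41.4% and 50.3%. Both FGR libraries lay above both Ctrl libraries in each FGR-only choice. For 254 regions chosen as Ctrl-only on the same replicates, FGR 1 and 3 again lay above, at 52.4% and 57.1% against 31.5% in Ctrl 1 and 45.3% in Ctrl 3. The 546 regions chosen as Ctrl-only on replicates 1 and 3 were called in 37.7% in FGR 2, 45.1% in FGR 4, 11.7% in Ctrl 2 and 48.2% in Ctrl 4. With 2 libraries against 2 an exact permutation test could not go below 0.333, and none was run.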

How the data were processed

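Peaks were deposited as 1 list per library, so they were called per library. Libraries were made with a Vazyme transposase kit, per the labels' protocols. The submitters' processing notes list the build mm10 and the tools MACS2 2.2.7.1, Bowtie2 2.4.5, Trim Galore 0.6.5, DiffBind 3.12.0 and SAMtools 1.3.1, without saying what each did. Whether reads were shifted, or duplicates and blacklisted regions removed, is not stated in the labels or files used. The deposited score, a display value, was not used. The deposited fold is a ratio of summit pileup to local background, and −log10 q and −log10 p, as the authors deposited them, give its significance. They describe and rank peaks within their own list.

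Whole-number pileups were recovered, as a Poisson tail, by combining the deposited −log10 p with the fold for 100% of peaks, within 0.001. Depth per library is known only through background coverage, because read totals were not used here. Genes came from the RefSeq table of GRCm38.p6 (21887 protein-coding genes, without strand or exons). Gene lists, 30 with the marker lists, had 477 of 479 genes matched. Motifs were searched in promoter windows alone, since no genome sequence was used here.

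Loci averaging 2 or more peaks per library were fitted with limma 3.58.1 (R 4.3.3, trend, all 8 libraries, no block), with Benjamini-Hochberg adjustment at 0.05. Tables were handled in Python 3.11.15 with pandas 2.3.3 and numpy 2.4.6, Poisson tails with scipy 1.17.1 and plots with matplotlib 3.10.9. Each statistical step was first tested on simulated data. Regions and genes were named by a rule: the 25 highest and 3 lowest ranks, genes holding 2 regions, the 15 highest ranks at gene ends, and listed genes with a region within 20 kb. Any other was named after its values were seen. Some genes that the rule names are left out of the text and are not reported here. The members and lists were chosen with earlier results of these data known. Alternatives covered the peak threshold, list length, merging, left-out libraries, library subsets and the limma settings.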

Additional observations from a re-analysis of the deposited data

Results flagged for a closer look

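In 4 of the 96 named regions, 1 FGR library lay far from the other 3 in summit pileup over background coverage, by Dixon's criterion for 4 samples. Chance alone gives about 1 in 20. The region near 1500009L16Rik (chr10:83946536-83947046, rank 4) stood at 11.9 in FGR 2 against 7.83 to 8.09 in the others. In Cux1 (chr5:136427687-136428135) FGR 4 was at 8.49 against 5.96 to 6.22. Low values were those of Sgk1 (chr10:21890284-21890678), at 5.88 in FGR 4 against 6.22 to 6.28, and near Laptm5 (chr4:130899825-130900225), at 6.80 in FGR 1 against 7.38 to 7.46.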

How the results depend on the processing

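The count of 454 FGR-only regions depended on the lists compared. With only the strongest peaks of each list, as many as the shortest list holds, it was 128 (90 Ctrl-only), and 10 of the 454 were among them. It was 344 with −log10 q of at least 5, which overlapped 142 of the 454, 460 with merging from 100 bp (447 of the 454) and 444 across gaps of 200 bp (435). Leaving out 1 library gave 461 to 884, and each such count requires fewer libraries. The merging also changes, and 453, 451, 451 and 452 of the 454 were overlapped without FGR 1 to 4 in turn. The counts over 1.5 times larger were those without Ctrl 3 (811), Ctrl 4 (884), FGR 1 (724) and FGR 2 (801). Replicates 1 and 2 alone gave 3041 FGR-only and 67 Ctrl-only regions, replicates 3 and 4 alone 1623 and 660, replicates 1 and 3 alone 4212, and replicates 2 and 4 alone 3160. The share away from gene ends was 88.7% with a window of 1 kb, 92.04% with 500 bp and 73.0% with 5 kb.

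No locus passed limma in the fit reported, while alternatives called a few. Higher and lower calls numbered 1 and 0 with all peaks kept, 2 and 5 with a pseudocount of 1 peak, 1 and 1 with a mean of at least 0.5 peaks, and 11 and 6 with lists of equal length, where some loci have the same count in all libraries of a group. Leaving out 1 library gave 0 to 5 higher and 0 to 3 lower, with 5 and 3 without Ctrl 3 and 2 and 2 without Ctrl 4. With the replicate number as a block, 27 were higher and 51 lower, while averaging replicates 1 and 3, and 2 and 4, of each group gave 0 and 0. Same-numbered samples did not deviate together (correlations of -0.0134, 0.0991, 0.0691 and 0.0310), so the numbers were not taken as pairs. Leaving out 1 library, the Chn2 difference ran from -0.000472 without Ctrl replicate 3 to 0.16 without Ctrl replicate 1. Over the other alternatives it was positive and reached 0.55 with lists of equal length. The cause of these changes was not tested.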
